A study of Mus musculus with 24 samples.

Results

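T-DM1 was compared with no treatment in RNA from CD45+ cells of EMT6-hHER2 tumors, with 6 treated and 6 untreated mice among the 24 samples of the series and 16996 genes measured in every sample. The samples were chosen by the treatment named in their labels, and values are also given without 2 of the untreated samples, B1 and C1, which leaves 4. EMT6 is a murine mammary carcinoma line, and EMT6-hHER2 is a single clone of it that carries human HER2 under a constitutive promoter. All mice were wild-type female BALB/c mice of 10 to 12 weeks with a tumor in the mammary fat pad. Treated mice received 1 intravenous dose of 15 mg/kg T-DM1 once tumors measured 80 mm3, and tumors were taken 10 days later, as were those of the mice that received no treatment. Tumors were digested with enzymes and CD45+ cells were enriched with magnetic beads, and the study checked their purity by flow cytometry. Each library came from 1 mouse. The other samples came from 6 mice given trastuzumab, the antibody of T-DM1, at 20 mg/kg and 6 given T-PNU at 1 mg/kg. T-PNU is that antibody with an anthracycline payload, and all 4 groups entered one fit. Wells name the samples, A1 to F1 for untreated and C3 to H3 for T-DM1.

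T-DM1 is the antibody trastuzumab, which binds HER2, coupled to the maytansinoid DM1, an inhibitor of microtubule polymerization. The antibody delivers DM1 to HER2-bearing tumor cells, while its constant region can engage Fc gamma receptors on leukocytes. The CD45+ cells of a tumor are mostly macrophages, monocytes, neutrophils and lymphocytes, and the mouse gene for CD45 is Ptprc. In such bulk RNA, fewer cells of a type and less RNA per cell cannot be told apart. Expression is given as the deposited log2 value, so that a difference of 1 is a 2-fold difference, and fold changes are T-DM1 minus untreated on that scale.

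The leukocyte gene Ptprc had high values in every sample. It ran from 14.27 to 15.24 (median 14.46) in untreated and from 14.01 to 14.61 (median 14.31) in T-DM1 samples. Of the 6 leukocyte markers 1 fell, the actin-bundling protein Lcp1 (log2 fold change -0.49, adjusted p = 0.0167; -0.43, adjusted p = 0.078 with each sample's trend with GC content removed), and Ptprc had a log2 fold change of -0.34 (adjusted p = 0.27). Over all genes 2.15% were lower at an adjusted p under 0.05. Untreated B1 and C1 lay apart from the other untreated samples, in opposite directions for macrophage markers and in the same direction for T cell markers. Relative to the mean of all samples, the macrophage markers averaged -0.99 in B1 and 0.83 in C1, against 0.02 to 0.21 in the other 4. For T cell markers the averages were 1.5 and 0.24, against -1.53 to -0.41. The column headings also hold a number for each sample, and they do not say what it counts. These numbers form separate runs for each treatment, with those of the untreated samples far below those of all 3 treated groups. The wells differ by treatment as well. Whatever went with the numbers or the wells cannot be told apart from the treatment.

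Few genes passed the thresholds of the study, a false discovery rate (FDR) under 0.01 and a fold change above 2. With T-DM1, 18 genes were higher (0.106% of the 16996) and 8 were lower (0.0471%). Without B1 and C1 the same thresholds gave 5 higher (0.0294%) and 8 lower (0.0471%), and these 8 were the same genes. At an adjusted p under 0.05 with no limit on size, 699 genes were higher (4.11%) and 366 lower (2.15%). That wider set shrank to 145 higher (0.853%) and 199 lower (1.17%) without B1 and C1, of which 133 and 157 were also called over all samples. Leaving out any 1 of the 12 mice gave 259 (without D3) to 1000 higher and 136 (without E3) to 626 (without E1) lower. The median over all genes was -0.02, and 0.00 without B1 and C1. Past both thresholds, a fit of the T-DM1 and untreated samples alone gave 4 higher and 0 lower. With B1 and C1 also left out that fit gave 6 and 7.

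**Figure D1:**
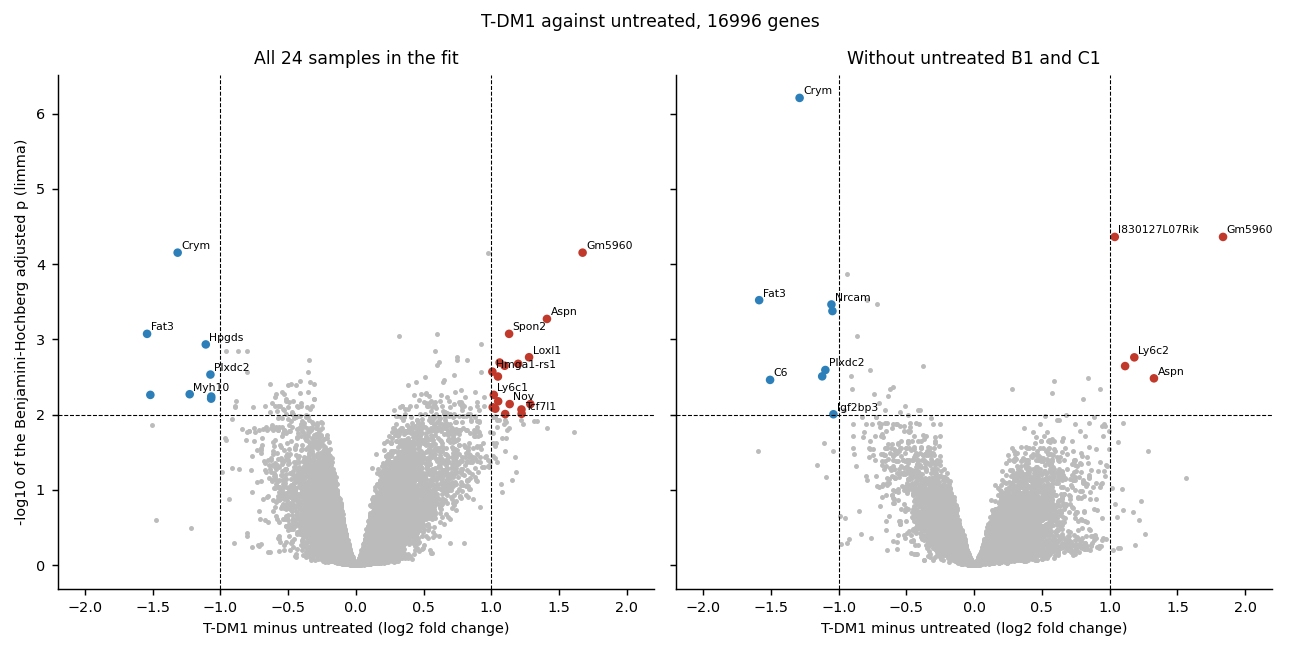
Each point is a gene, with the log2 fold change of T-DM1 against untreated on the x axis and -log10 of the limma adjusted p on the y axis, for all 24 samples (left) and without untreated B1 and C1 (right). Dashed lines mark an adjusted p of 0.01 and a 2-fold difference; genes past both are colored (18 red and 8 blue on the left, 5 red and 8 blue on the right) and labelled where the labels do not overlap.

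The wide set of calls moved with base composition. Genes higher with T-DM1 had a median transcript GC content of 57.8% and genes lower with it 44.8%, against 49.6% over all genes. Across genes, the rank correlation of the fold change with GC content was 0.53, and 0.51 without B1 and C1, with genes sharing the same libraries. When each sample's trend with GC content was removed, 112 genes were higher (0.662% of 16930) and 173 lower (1.02%), and without B1 and C1 37 (0.219%) and 123 (0.727%). Of the 12 falls and 12 rises named next by size, 10 and 11 were still called in the fit of all samples with the GC trend removed, and 12 and 6 in that without B1 and C1. These are the largest among genes with a symbol past both thresholds, filled up at an adjusted p under 0.05, and a gene whose call was lost over all samples is named with its value. Ranked by mean expression among all genes, the falls lay from percentile 30.0 to 85.2 and the rises from 31.5 to 93.7. All falls but Hpgds and Cx3cr1, and all rises but Dcn and Ly6c2, were below the median gene.

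The genes that fell most with T-DM1 were Fat3, C6, Crym, Myh10, Hpgds, Plxdc2, Nrcam and Igf2bp3, which passed both thresholds, followed by Cx3cr1, Zdhhc2, Gpr34 and Chrm3 at an adjusted p under 0.05. The fall of these 12 ranged from 1.88-fold to 2.91-fold. In 8 of the 12, every T-DM1 value lay below every untreated value, as did 1.28% of all genes. With B1 and C1 left out this held for 11 of the 12, and for 3.53% of all genes.

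Crym, a cytosolic protein that binds thyroid hormone, had the smallest adjusted p of the falling genes. Its values were 7.35, 6.61, 8.06, 7.16, 7.21 and 7.29 in untreated A1 to F1, and 6.00, 5.91, 5.98, 6.03, 6.19 and 5.69 in T-DM1 C3 to H3. The groups did not overlap (log2 fold change -1.32 ± 0.15 SE, adjusted p = 7.05e-05). B1 and C1 were its lowest and highest untreated samples, and without them the difference was -1.29 (adjusted p = 6.2e-07). Crym lies at chr7:120186380-120202111 (GRCm38).

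Fat3 encodes a giant cadherin, and its log2 expression ran from 6.58 to 8.08 (median 7.49) in untreated mice and from 5.62 to 6.40 (median 5.85) with T-DM1. Every treated mouse was below every untreated one (log2 fold change -1.54 ± 0.22 SE, adjusted p = 0.000845), with C3 the highest of the treated. C6, a component of the terminal complement pathway, ran from 6.26 to 8.47 (median 7.22) and from 5.47 to 6.24 (median 5.77). The highest treated value came close to the lowest untreated one, B1, but the groups did not overlap (log2 fold change -1.52 ± 0.28 SE, adjusted p = 0.00547). Myh10 encodes nonmuscle myosin IIB and ran from 7.04 to 8.94 (median 7.59) untreated against 6.19 to 6.97 (median 6.55) treated (log2 fold change -1.23 ± 0.23 SE, adjusted p = 0.00536), again without overlap. Hpgds, the hematopoietic prostaglandin D synthase, ran from 10.07 to 11.34 (median 10.50) untreated and from 9.21 to 9.73 (median 9.42) treated. All 6 treated mice were lower than all untreated ones (log2 fold change -1.11 ± 0.16 SE, adjusted p = 0.00117).

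The remaining genes past both thresholds were a membrane protein, an adhesion molecule and an RNA-binding protein. Plxdc2, a transmembrane plexin-domain protein, ran from 7.74 to 9.0 (median 8.43) untreated and from 6.92 to 7.54 (median 7.44) treated, with no overlap (log2 fold change -1.07 ± 0.18 SE, adjusted p = 0.00294). For Nrcam, a neuronal cell adhesion molecule of the immunoglobulin superfamily, the ranges were 7.22 to 9.16 (median 8.14) and 6.76 to 7.37 (median 7.10). Here 4 of 6 treated mice lay below B1, the lowest untreated mouse, and all 6 below the other 5 (log2 fold change -1.07 ± 0.20 SE, adjusted p = 0.00613). Igf2bp3, an oncofetal RNA-binding protein, ran from 5.64 to 6.97 (median 6.24) and from 4.70 to 5.85 (median 5.09), and G3 was the 1 treated mouse above an untreated value (log2 fold change -1.07 ± 0.20 SE, adjusted p = 0.00576). With the trend with GC content removed, these 8 genes kept an adjusted p between 0.00018 and 0.019.

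**Figure D2:**
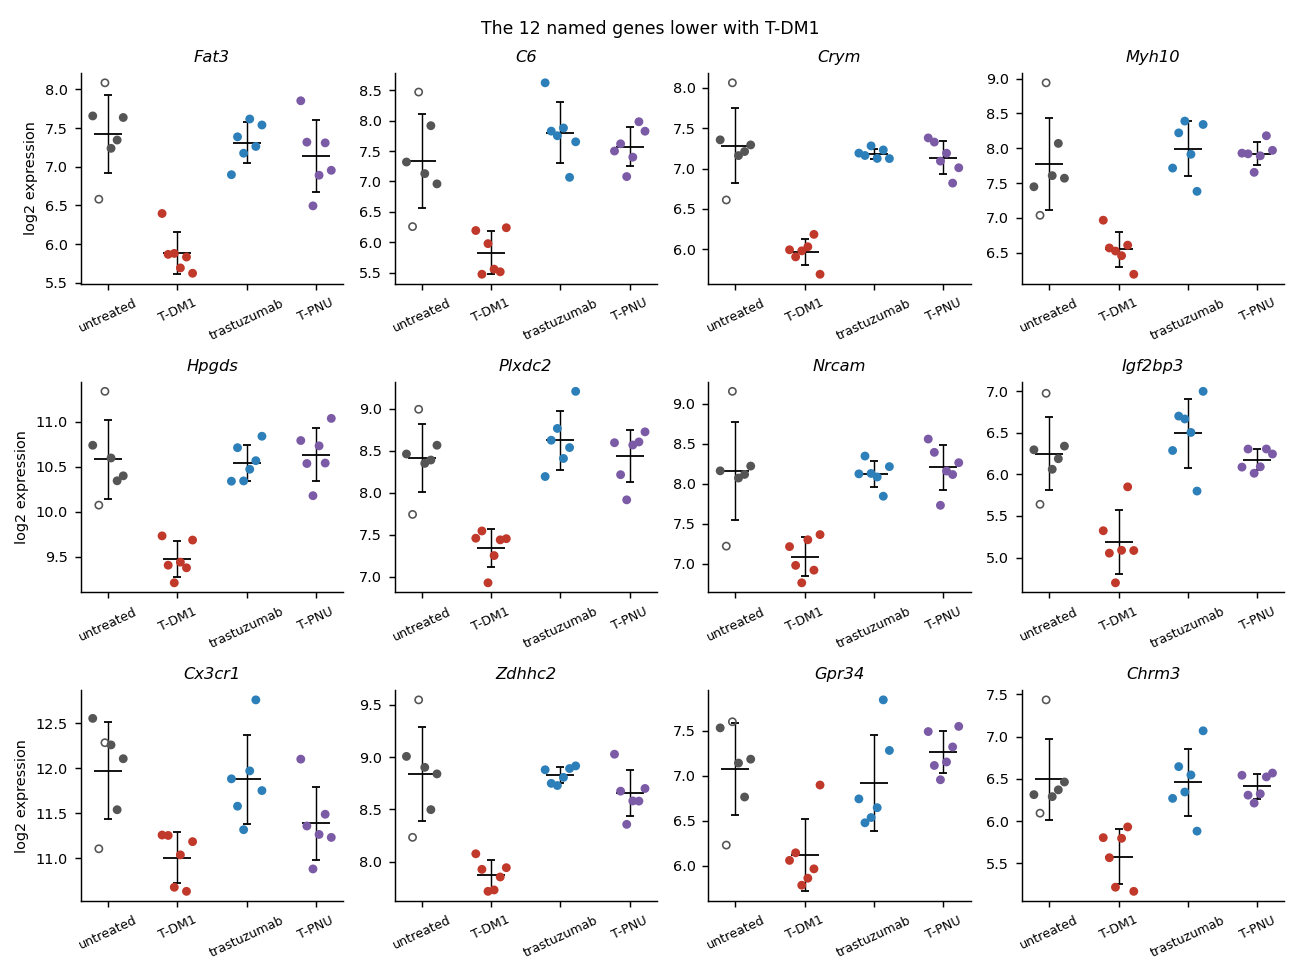
Log2 expression (y axis) of the 12 named genes that were lower with T-DM1, one panel a gene, with each sample as a point and the mean ± SD of 6 samples as a bar; open points are untreated B1 and C1. In each panel the T-DM1 mean lies below those of the other 3 groups, and B1 is the lowest untreated sample.

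Cx3cr1 and Gpr34, receptors found on macrophages and microglia, were 2 of the 12 named falls. Cx3cr1, the fractalkine receptor, ran from 11.11 to 12.55 (median 12.18) untreated and from 10.64 to 11.26 (median 11.11) treated. Only B1 overlapped the treated mice (log2 fold change -0.96 ± 0.24 SE, adjusted p = 0.0202), and the call was lost with the trend with GC content removed (-0.96, adjusted p = 0.0586). Gpr34, a receptor for lysophosphatidylserine, fell (log2 fold change -0.96 ± 0.24 SE, adjusted p = 0.0219), with treated H3 at 6.90 inside the untreated range and the other 5 below it; with the GC trend removed it was -0.82 (adjusted p = 0.0682). P2ry13 and P2ry12, ADP receptors named after their values were seen, had log2 fold changes of -0.89 (adjusted p = 0.00665) and -0.70 (adjusted p = 0.0282). For P2ry13, 5 of 6 treated mice lay below all untreated ones, and all 6 did without B1 and C1. With the GC trend removed P2ry12 was -0.57 (adjusted p = 0.133). Zdhhc2, a palmitoyltransferase, fell without overlap (log2 fold change -0.96, adjusted p = 0.00142), as did the muscarinic acetylcholine receptor Chrm3 (log2 fold change -0.91, adjusted p = 0.0113).

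The genes of the 3 chains of C1q, which starts the classical complement pathway and is made in tissues by macrophages, all had log2 fold changes below 0, and 1 passed the test. C1qb ran from 13.89 to 15.76 (median 14.83) in untreated and from 13.91 to 14.43 (median 14.08) in treated mice (log2 fold change -0.75 ± 0.19 SE, adjusted p = 0.0227). B1, at 13.89, was below every treated mouse, and the other 5 untreated mice were above all of them. C1qa (-0.64, adjusted p = 0.0531) and C1qc (-0.60, adjusted p = 0.0654) did not pass the test over all samples. All 3 were lower without B1 and C1, C1qa at -0.69 (adjusted p = 0.0134), C1qb at -0.77 (adjusted p = 0.00256) and C1qc at -0.65 (adjusted p = 0.0167). They were also lower over all samples with the GC trend removed, at -0.92 (adjusted p = 0.0159), -0.95 (adjusted p = 0.0118) and -0.81 (adjusted p = 0.0272).

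Among the 13 macrophage markers, C1qb was the 1 that fell and none rose, or 3 without B1 and C1, all of them C1q chains. Their median was -0.53 (-0.51 without B1 and C1), with 2 of 13 above 0. Over all genes, 7737 of 16996 were above 0, and 2.15% were called lower (1.17% without B1 and C1). Adgre1, the F4/80 antigen, had -0.53 (adjusted p = 0.134), Mertk, a receptor for apoptotic cells, -0.56 (adjusted p = 0.113), and the lysosomal marker Cd68 -0.0041 (adjusted p = 0.993). Mean levels of the list ran from -0.67 to -0.12 with T-DM1 and from 0.02 to 0.21 in the 4 untreated mice other than B1 and C1, without overlap, but from -0.99 to 0.83 over all 6, which spans the treated range. Of 10 genes of inflammatory macrophage activation Cd38, an NAD-consuming ectoenzyme, fell (log2 fold change -0.73, adjusted p = 0.0295; -0.60, adjusted p = 0.105, with the GC trend removed). None of the 10 genes of alternative activation was called over all samples, and without B1 and C1 Arg1, arginase 1, was lower (-0.67, adjusted p = 0.0333; -0.56, adjusted p = 0.0944, with them).

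The largest rise of all was at the Ly6 locus on chromosome 15, whose genes encode small GPI-anchored surface proteins. Gm5960, an unprocessed pseudogene at chr15:75071112-75074638 (GRCm38), had the largest log2 fold change of the 16996 genes. Its values were 5.40, 5.57, 6.31, 4.92, 5.69 and 5.77 in untreated A1 to F1 and 7.54, 7.27, 6.99, 7.12, 7.32 and 7.46 in T-DM1 C3 to H3. The groups were well apart (log2 fold change 1.67 ± 0.20 SE, adjusted p = 7.05e-05), and without B1 and C1 the difference was 1.84 (adjusted p = 4.36e-05). Together with I830127L07Rik, a transcribed pseudogene at chr15:75131377-75135128, it was without a symbol in the deposited table, and both were named after their values were seen. I830127L07Rik ran from 4.03 to 4.56 (median 4.06) untreated and from 4.98 to 5.31 (median 5.11) treated, again with no overlap (log2 fold change 0.97 ± 0.11 SE, adjusted p = 7.05e-05).

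Ly6c2 and Ly6c1, which encode the Ly6C antigens of monocytes and some endothelial and lymphoid cells, lie on either side of Gm5960. Ly6c2 was 11.72, 11.61, 13.06, 11.81, 12.21 and 12.01 in untreated A1 to F1, and 13.44, 13.46, 12.65, 12.80, 12.84 and 13.50 with T-DM1. Untreated C1 lay inside the treated range and the other 5 untreated mice lay below it (log2 fold change 1.05 ± 0.20 SE, adjusted p = 0.00665). With both B1 and C1 left out the groups did not overlap and the difference was 1.18 (adjusted p = 0.00173). Ly6c1 had the same layout (log2 fold change 1.02 ± 0.19 SE, adjusted p = 0.00547; 1.11, adjusted p = 0.00227 without B1 and C1). Over all genes 4.11% were called higher, and 0.853% without B1 and C1. Of 9 measured genes within 150 kb of Ly6c2, 5 were called higher and none lower, and 4 were without B1 and C1. The fifth was Ly6e (0.46, adjusted p = 0.0459), while the neutrophil antigen gene Ly6g had -0.11 (adjusted p = 0.734). The window was centered on Ly6c2, a named rise that is itself counted. The count of 5 is therefore a description and no test of the locus.

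These genes share stretches of sequence, so the share of reads each one received is uncertain. Of the 50-base stretches of the longest Ly6c1 transcript, 30.7% occur unchanged in another of the 9 genes. The share was 7.87% for Ly6c2, 9.8% for Gm5960 and 10.7% for I830127L07Rik.

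The sequence before the Ly6c2 start is shown because this gene rose in every treated mouse against the untreated mice other than C1. It is the RefSeq window of 250 bases before the first listed start, at chr15:75111972-75112221 on the minus strand of GRCm38.p6. The capitals mark the letters GAGGAAGT, the core that the myeloid factor PU.1 prefers, searched on both strands.
Ly6c2: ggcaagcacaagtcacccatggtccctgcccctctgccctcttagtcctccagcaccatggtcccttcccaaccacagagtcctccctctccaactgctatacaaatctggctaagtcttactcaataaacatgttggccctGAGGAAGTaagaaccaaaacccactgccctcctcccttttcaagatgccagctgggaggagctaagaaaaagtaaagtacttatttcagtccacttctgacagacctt
The match begins at position -108 from the start. These letters occur in 2.44% of the 32851 windows of that length, in 1 of the 5 windows found for the 12 named rises (Ly6c2) and in 1 of 8 for the 12 named falls (Hpgds). Windows with the same letters thus stand before a gene that rose and before one that fell.

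Few other genes of monocytes and neutrophils were called. Of 7 monocyte markers, Ly6c2 alone rose and none fell, and the median was 0.44, or 0.13 without B1 and C1. The share called higher over all genes was 4.11%, and 0.853% without B1 and C1. Ccr2, the chemokine receptor of inflammatory monocytes, had -0.01 (adjusted p = 0.979) and Plac8 0.54 (adjusted p = 0.083), and without B1 and C1 Plac8 was higher, at 0.73 (adjusted p = 0.0303). Mmp9, matrix metalloproteinase 9, was the 1 of 12 neutrophil markers that rose (log2 fold change 1.10 ± 0.24 SE, adjusted p = 0.0105), from 10.19 to 12.07 (median 11.48) untreated to 11.79 to 12.86 (median 12.59) with T-DM1. All treated mice but E3 exceeded the highest untreated mouse, C1. The neutrophil genes S100a8 and S100a9 had -0.21 (adjusted p = 0.642) and -0.19 (adjusted p = 0.619), and the median of the list was -0.02. Ocstamp, a fusion protein of osteoclasts and macrophages named after its values were seen, rose without overlap (log2 fold change 1.05 ± 0.18 SE, adjusted p = 0.00312; 0.84, adjusted p = 0.0033 without B1 and C1).

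Several of the other large rises encode proteins of the extracellular matrix. In order of size the 12 named rises were Aspn, Ssc5d, Loxl1, Tcf7l1, Sod3, Cd248, Nov, Spon2, Angpt4, Dcn, Prelp and Ly6c2, from 2.66-fold to 2.07-fold. In 11 of the 12 every treated value lay above every untreated one, as did 2.05% of all genes. Against the untreated mice other than B1 and C1 this held for all 12, and for 2.81% of all genes. B1 or C1 was the lowest untreated sample for each of the 12. Without both, 9 of the 12 kept an adjusted p under 0.05, and 6 did with the GC trend removed as well, where Cd248 was 0.64 (adjusted p = 0.0606), Nov 0.90 (adjusted p = 0.0555) and Ssc5d 0.70 (adjusted p = 0.155).

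Aspn, asporin, a small leucine-rich proteoglycan that binds collagen, had the largest of these 12 rises. It was 6.41, 6.26, 6.13, 6.44, 6.25 and 6.69 in untreated A1 to F1 and 7.61, 7.49, 7.65, 8.01, 7.53 and 8.34 with T-DM1. The groups were separate (log2 fold change 1.41 ± 0.19 SE, adjusted p = 0.000535), and neither leaving out B1 and C1 (1.33, adjusted p = 0.0033) nor removing the GC trend (1.54, adjusted p = 0.000183) ended the call. Decorin (Dcn), of the same family, ran from 8.82 to 9.37 (median 9.06) untreated and from 9.89 to 10.63 (median 10.20) treated (log2 fold change 1.10 ± 0.18 SE, adjusted p = 0.00224; 0.99, adjusted p = 0.0164 without B1 and C1). Prelp, also a leucine-rich proteoglycan, ran from 5.35 to 5.92 (median 5.43) and from 6.26 to 6.82 (median 6.67) (log2 fold change 1.06 ± 0.17 SE, adjusted p = 0.00203). For both the treated mice were all above the untreated mice.

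Spon2, a secreted matrix protein, ran from 5.56 to 6.61 (median 6.01) untreated and from 7.0 to 7.33 (median 7.23) treated (log2 fold change 1.13 ± 0.16 SE, adjusted p = 0.000845; 0.93, adjusted p = 0.00459 without B1 and C1). Loxl1, an enzyme that cross-links elastin, ran from 6.25 to 7.18 (median 6.80) and from 7.56 to 8.36 (median 8.04) (log2 fold change 1.28 ± 0.20 SE, adjusted p = 0.00173). Both genes were separate between the groups. Cd248, endosialin of fibroblasts and pericytes, ran from 6.30 to 7.11 (median 7.04) untreated and from 7.67 to 8.34 (median 8.04) treated (log2 fold change 1.20 ± 0.19 SE, adjusted p = 0.00211), and Nov, a matricellular protein, rose without overlap as well (adjusted p = 0.00724). The call of Cd248 and that of Nov held without B1 and C1, at 0.94 (adjusted p = 0.0143) and 0.84 (adjusted p = 0.0442). Ssc5d, a scavenger receptor cysteine-rich protein, rose (log2 fold change 1.29, adjusted p = 0.00724; 0.98, adjusted p = 0.0479 without B1 and C1).

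For 3 of the rises the call was lost without B1 and C1. Extracellular superoxide dismutase Sod3 (log2 fold change 1.22, adjusted p = 0.00854) was then 0.96 (adjusted p = 0.0566). The transcription factor Tcf7l1 (log2 fold change 1.22, adjusted p = 0.00975) was 0.96 (adjusted p = 0.0646), and it was 0.95 (adjusted p = 0.0527) with the GC trend removed. Angpt4, a ligand of the Tie2 receptor (log2 fold change 1.10, adjusted p = 0.00982), was 0.85 (adjusted p = 0.0679). In each of the 3 the treated mice still lay above all untreated mice.

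**Figure D3:**
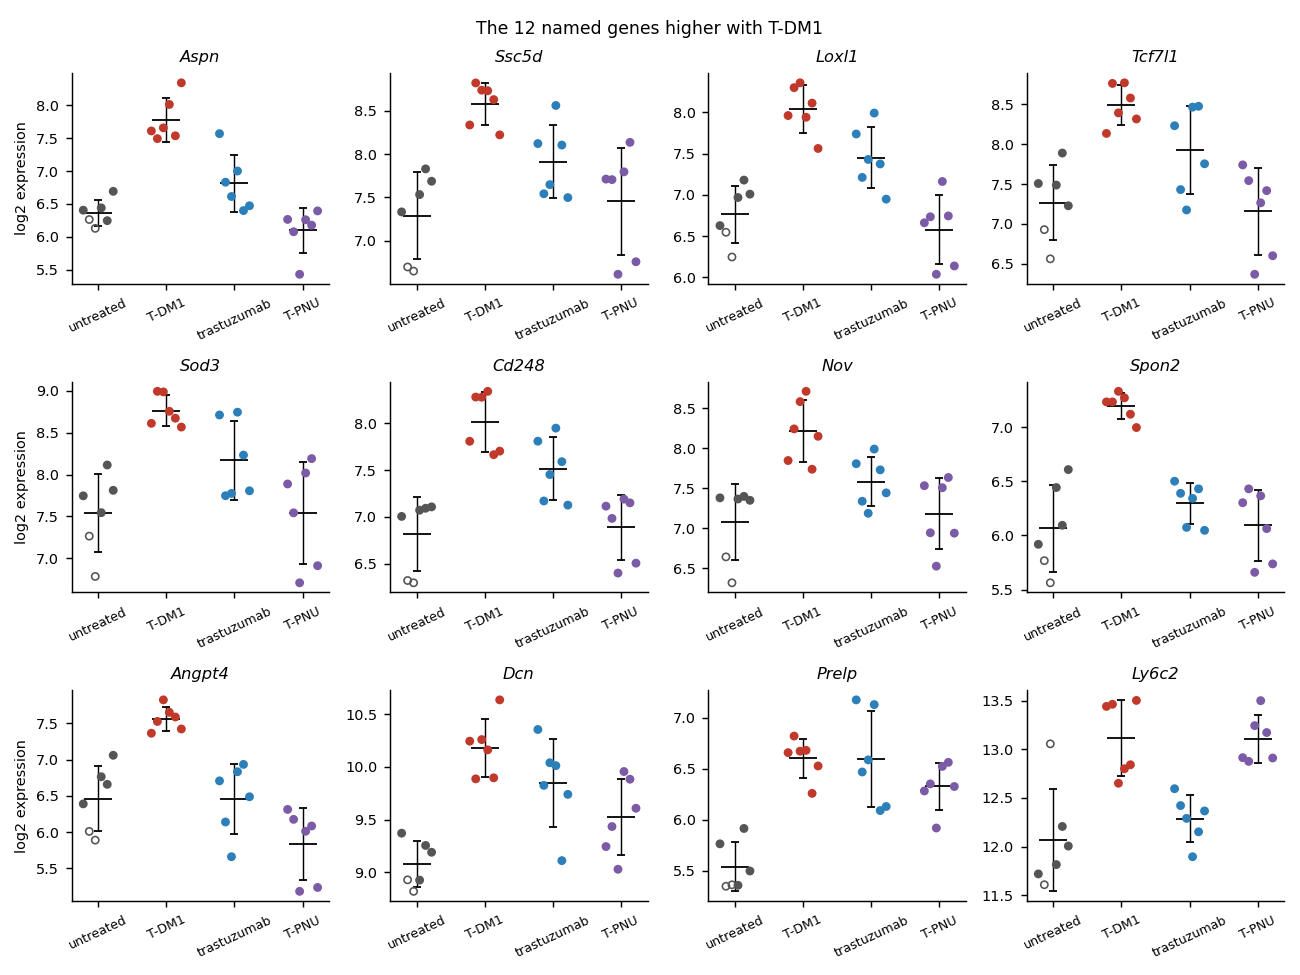
Log2 expression (y axis) of the 12 named genes that were higher with T-DM1, one panel a gene, with each sample as a point and the mean ± SD of 6 samples as a bar; open points are untreated B1 and C1. Except for Ly6c2, where untreated C1 lies inside the treated range, all T-DM1 samples lie above all untreated samples.

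Several markers of fibroblasts were among the rises. Of 8 markers, 3 rose and none fell: Col1a1, the alpha 1 chain of type I collagen (log2 fold change 1.32 ± 0.29 SE, adjusted p = 0.0122), Col3a1, of type III collagen (log2 fold change 0.91 ± 0.22 SE, adjusted p = 0.0171), and Dcn. The median was 0.84, against -0.02 over all genes, of which 4.11% rose. Fap, fibroblast activation protein, had 0.10 (adjusted p = 0.807) and Pdgfra 0.58 (adjusted p = 0.186). Mean levels of the list ran from 0.44 to 0.68 with T-DM1 and from -0.81 to 0.04 untreated, or -0.23 to 0.04 without B1 and C1, with no overlap either way. When B1 and C1 were left out the median was 0.55 and Dcn alone was called, Col1a1 being 0.93 (adjusted p = 0.0833) and Col3a1 0.57 (adjusted p = 0.118).

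Of 18 collagens and matrix genes, 6 rose and none fell (median 0.53), where 4.11% of all genes rose and 2.15% fell. They were led by Col1a1, Col6a2 (log2 fold change 1.04, adjusted p = 0.0422), Col5a1 (log2 fold change 0.97, adjusted p = 0.0395) and Col3a1. The basement membrane collagens Col4a1 and Col4a2 had -0.09 (adjusted p = 0.857) and 0.03 (adjusted p = 0.954). None of the 18 was called without B1 and C1, where the median was 0.32, and with the GC trend removed over all samples 3 were. Of 12 matrix metalloproteinases and inhibitors, Mmp9 and the gelatinase Mmp2 (log2 fold change 1.06 ± 0.23 SE, adjusted p = 0.012) rose; Mmp2 was 0.81 (adjusted p = 0.0805) without B1 and C1. The macrophage elastase Mmp12 had -0.56 (adjusted p = 0.132).

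Fibroblasts lack CD45, and by the methods of the study nearly all of the enriched cells carried it when checked by flow cytometry. Col3a1 ran from 13.10 to 14.45 untreated and from 14.64 to 15.14 with T-DM1. Ptprc ran from 14.27 to 15.24 and from 14.01 to 14.61. Because the transformation of the values is not given, the levels of these different genes cannot be compared as amounts. The part of fibroblast RNA in the matrix genes was not tested. Few markers of other non-leukocytes were called. Of 8 epithelial and tumor markers none was called (median 0.13), and mean levels ran from -0.26 to 0.19 with T-DM1 against -0.39 to 0.04 untreated. These were keratins, Epcam and Cdh1, and how well they mark EMT6 cells was not tested. None of 8 endothelial markers was called (median -0.21). Of 5 red blood cell genes, Alas2, the erythroid enzyme of heme synthesis, rose (log2 fold change 0.92, adjusted p = 0.0429; 0.90, adjusted p = 0.13 without B1 and C1). All 5 were above 0, with a median of 1.07 and mean levels from 0.12 to 0.94 treated and from -1.39 to 0.00 untreated. Over all genes, 7737 of 16996 were above 0 and 4.11% were called higher.

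Most genes induced by type I interferon had a positive difference, and few passed the test. Of 18, 17 had a log2 fold change above 0 and the median was 0.36, but 1 passed the test, Irf7, the transcription factor that amplifies the response. Over all genes, 7737 of 16996 had a log2 fold change above 0 and 4.11% were called higher. Irf7 ran from 13.11 to 14.82 (median 13.53) untreated and from 14.19 to 14.80 (median 14.43) treated (log2 fold change 0.73 ± 0.21 SE, adjusted p = 0.0383; 0.61, adjusted p = 0.128 with the GC trend removed). Untreated C1 was above every treated mouse and the other 5 untreated mice were below all of them. Without B1 and C1 the median was 0.46, and Irf7 (0.85, adjusted p = 0.0128), the ubiquitin-like Isg15 (0.66, adjusted p = 0.0396) and the antiviral enzyme gene Oas3 (0.72, adjusted p = 0.0227) were called. That fit called 0.853% of all genes higher. Mean levels of the list ran from -0.26 to 0.40 with T-DM1, from -0.55 to -0.07 in the 4 untreated mice, and were -0.90 in B1 and 0.76 in C1.

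The window before Isg15 is shown because the pattern of an interferon-stimulated response element, here 2 copies of GAAA with any 2 bases between them, was found there. It covers chr4:156200819-156201068 on the minus strand of GRCm38.p6, and capitals mark 3 matches that overlap each other.
Isg15: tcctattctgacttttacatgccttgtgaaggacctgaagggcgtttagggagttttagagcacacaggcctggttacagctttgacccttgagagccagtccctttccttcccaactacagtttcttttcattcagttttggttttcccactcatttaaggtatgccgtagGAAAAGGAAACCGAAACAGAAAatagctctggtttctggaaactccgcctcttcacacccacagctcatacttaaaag
On either strand this pattern occurs in 2.98% of all windows and in 6 of the 13 windows found for the 18 interferon-induced genes (46.2%), among them Isg15 and Oas3 but not Irf7. In the windows of the 12 named falls it occurs in 1 of 8, that of Igf2bp3, and in those of the 12 named rises in 0 of 5.

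Of 13 genes induced by interferon gamma none was called in either fit (median -0.12). In MHC class I presentation 2 of 11 genes rose, tapasin (Tapbp, log2 fold change 0.56 ± 0.12 SE, adjusted p = 0.00884) and the peptide transporter Tap2 (log2 fold change 0.46, adjusted p = 0.0462). Over all genes 4.11% rose. Tapbp lay above all untreated mice in all 6 treated mice; with the GC trend removed it was 0.36 (adjusted p = 0.063) and Tap2 0.28 (adjusted p = 0.173). None of 10 MHC class II genes was called (median -0.11). Bst2, tetherin, was the 1 called of 6 plasmacytoid dendritic cell markers (log2 fold change 0.64, adjusted p = 0.0308; 0.51, adjusted p = 0.098 with the GC trend removed).

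Markers of T, NK and B cells held no call. None of 14 T cell markers was called, and their median of 0.12 became 0.66 without B1 and C1, where the lowest adjusted p of the 14 was 0.299. Cd3e had 0.20 (adjusted p = 0.843) and Cd8a -0.11 (adjusted p = 0.895), and without B1 and C1 0.71 (adjusted p = 0.474) and 0.45 (adjusted p = 0.492). Mean T cell levels ran from -1.41 to 0.81 with T-DM1 and from -1.53 to -0.41 in the 4 untreated mice, so the ranges overlapped. No member was called among 7 NK cell markers (median 0.00), 8 B cell markers (0.06), 7 regulatory T cell genes (-0.17), 11 genes of cytotoxic granules (0.12), 10 checkpoint genes (-0.20) and 8 genes of naive lymphocytes (0.15).

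**Figure D4:**
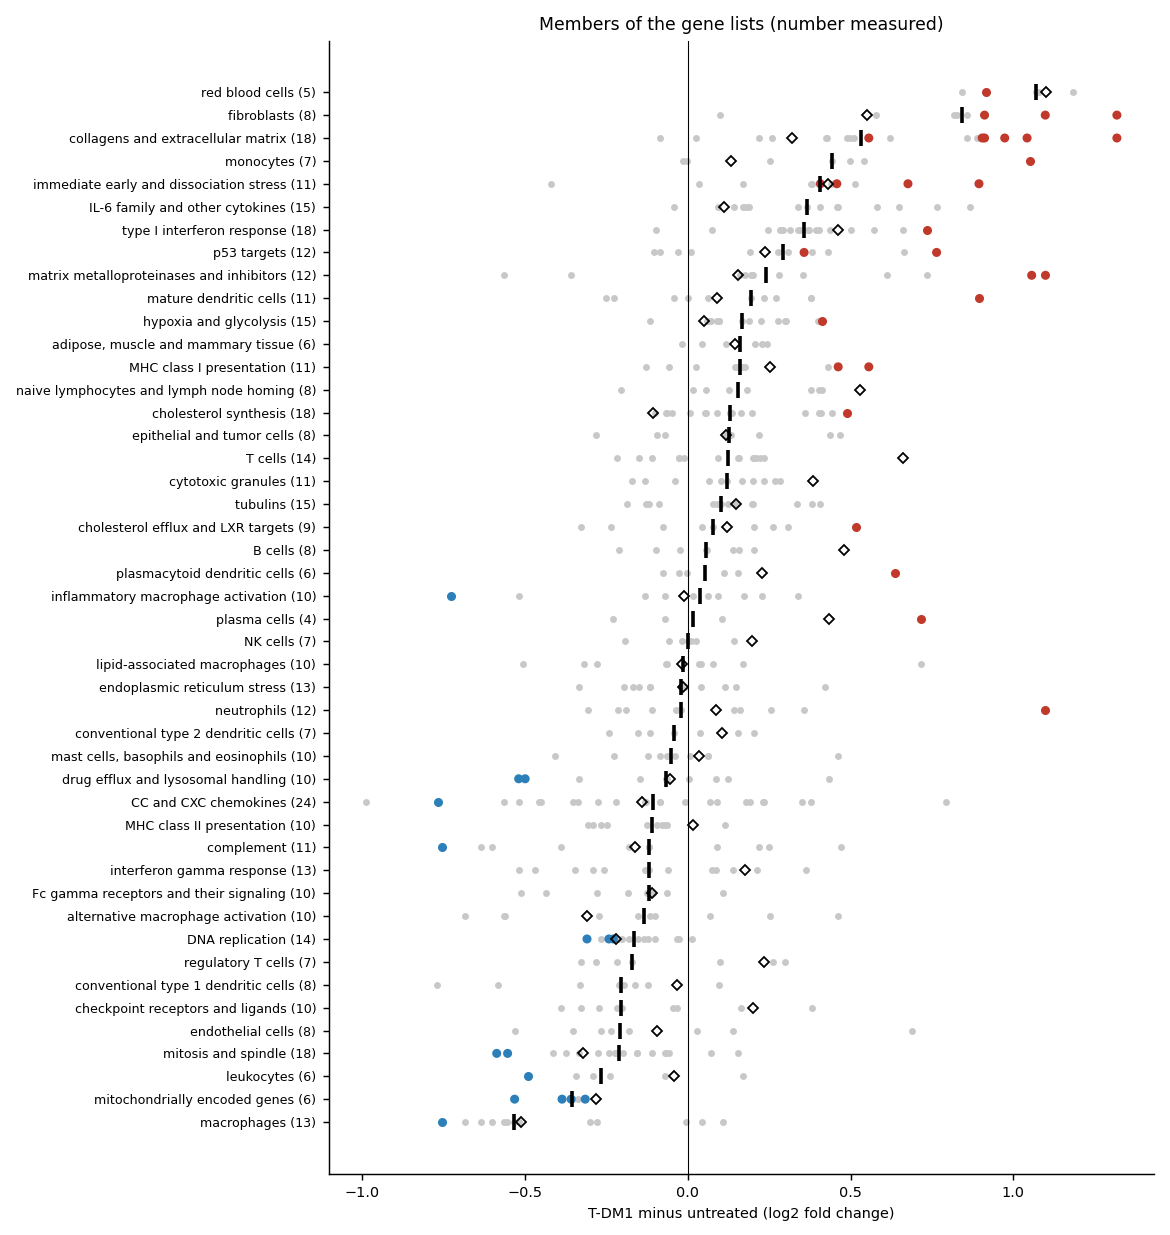
Log2 fold change of T-DM1 against untreated (x axis) for the measured members of the 46 gene lists (y axis, number measured in brackets). Gray points did not pass an adjusted p of 0.05, red and blue points were higher and lower, thick bars are medians over all samples and open diamonds medians without untreated B1 and C1; the macrophage median is the lowest, and the medians of the T cell and B cell lists move up without B1 and C1.

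Because DM1 acts on microtubules, genes of tubulin and of mitosis were examined. None of 15 tubulin genes was called (median 0.10, from -0.19 for Tubb1 to 0.41 for Tubb2b). Of 18 genes of mitosis and the spindle 2 fell and none rose: Mki67, a marker of cycling cells (log2 fold change -0.59 ± 0.13 SE, adjusted p = 0.0147), and the kinetochore motor Cenpe (log2 fold change -0.55 ± 0.14 SE, adjusted p = 0.0268). Over all genes 2.15% fell and 4.11% rose. Mki67 ran from 12.79 to 13.57 (median 13.29) untreated and from 12.46 to 12.83 (median 12.68) treated, and B1 was the 1 untreated mouse inside the treated range. Cenpe was separate between the groups, yet with the GC trend removed it was -0.44 (adjusted p = 0.132) and Mki67 -0.51 (adjusted p = 0.0646). In DNA replication 3 of 14 genes fell and none rose, by small amounts, the polymerase subunit Pole (log2 fold change -0.31, adjusted p = 0.0367) and the helicase subunits Mcm6 (log2 fold change -0.24, adjusted p = 0.032) and Mcm3 (log2 fold change -0.23, adjusted p = 0.0308). With the GC trend removed Mcm3 alone of these was called, Pole being -0.31 (adjusted p = 0.11) and Mcm6 -0.18 (adjusted p = 0.225). Mki67, Cenpe and, of the replication genes, Pole alone were still called without B1 and C1.

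Among 12 p53 targets 2 rose, the stress cytokine Gdf15 (log2 fold change 0.76, adjusted p = 0.0331) and Sesn2 (log2 fold change 0.36, adjusted p = 0.0444), but with the GC trend removed they were 0.43 (adjusted p = 0.167) and 0.10 (adjusted p = 0.608). Over all genes 4.11% rose and 2.15% fell. Of 10 genes of drug efflux and lysosomal handling 2 fell, the multidrug transporters Abcb1b (log2 fold change -0.52 ± 0.11 SE, adjusted p = 0.00975) and Abcg2 (log2 fold change -0.50 ± 0.14 SE, adjusted p = 0.0406). Abcb1b ran from 10.40 to 11.02 (median 10.84) untreated and from 10.09 to 10.48 (median 10.21) treated, and 5 of 6 treated mice lay below all untreated ones; without B1 and C1 it was -0.43 (adjusted p = 0.0589) and Abcg2 -0.32 (adjusted p = 0.199). None of 10 Fc gamma receptors and their signaling genes was called over all samples (median -0.12). Fcgr3, an activating receptor, had -0.51 (adjusted p = 0.0612) and was lower without B1 and C1, at -0.50 (adjusted p = 0.0276). Of 24 chemokines Cxcl14 fell (log2 fold change -0.77 ± 0.21 SE, adjusted p = 0.0354), with B1 inside the treated range and the other 5 untreated mice above it.

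Genes that respond to tissue dissociation and genes of the mitochondrial genome also differed. Of 11 immediate early and dissociation genes 4 rose, Junb (log2 fold change 0.89, adjusted p = 0.0331), Fosb (log2 fold change 0.68, adjusted p = 0.0217), Ier3 (log2 fold change 0.46, adjusted p = 0.028) and Fos (log2 fold change 0.41, adjusted p = 0.049), and with the GC trend removed none was called, while without B1 and C1 Fos alone was. Of 6 mitochondrially encoded genes 4 fell over all samples and 1, mt-Nd5, both without B1 and C1 and with the GC trend removed. The shares over all genes and samples were 4.11% higher and 2.15% lower. For mt-Nd5 (log2 fold change -0.53, adjusted p = 0.0088) the values ran from 14.63 to 15.35 (median 15.01) untreated and from 14.32 to 14.74 (median 14.46) treated. Their part in the other differences was not tested.

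Trastuzumab at 20 mg/kg and T-PNU at 1 mg/kg, the same antibody alone or with an anthracycline payload, were given to 6 mice each. Their doses differ from that of T-DM1. Both comparisons use the T-DM1 samples that chose the 24 named genes, so their counts are a description. All 8 genes that fell past both thresholds were also lower than with trastuzumab and lower than with T-PNU at an adjusted p under 0.05, and of the 12 named falls 10 and 11 were. Over all genes, 0.435% were lower than with trastuzumab and 12.4% lower than with T-PNU. Crym differed by -1.22 (adjusted p = 0.000267) from trastuzumab and by -1.17 (adjusted p = 0.00047) from T-PNU, and C6 by -1.97 (adjusted p = 0.00132) and -1.74 (adjusted p = 0.000898). For Cx3cr1 the differences were -0.87 (adjusted p = 0.0894) and -0.38 (adjusted p = 0.225).

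Among the 12 named rises, 3 were higher than with trastuzumab and 10 higher than with T-PNU, against 0.212% and 17.4% of all genes. The 3 were Aspn (0.96, adjusted p = 0.0186), Spon2 (0.90, adjusted p = 0.00764) and Angpt4 (1.10, adjusted p = 0.0272). Trastuzumab minus untreated had a median of 0.62 over the 12 named rises, 1 of them called, and of -0.03 over the 12 named falls. For T-PNU minus untreated these medians were 0.05, with 1 rise called, and -0.03. Both differences from untreated reuse the untreated samples by which the named genes were chosen. Low untreated values that helped choose a rise also raise these differences. Their medians and counts are therefore a description and no test of an effect shared with T-DM1. Prelp was not called against either agent, with 0.01 (adjusted p = 0.993) against trastuzumab and 0.27 (adjusted p = 0.22) against T-PNU. Its median was 5.43 untreated, 6.67 with T-DM1, 6.53 with trastuzumab and 6.34 with T-PNU. Ly6c2 differed from T-PNU by 0.01 (adjusted p = 0.965) and from trastuzumab by 0.83 (adjusted p = 0.0561), whereas the pseudogenes of its locus were higher than with both, Gm5960 by 1.58 (adjusted p = 0.000267) and 1.04 (adjusted p = 0.00169) and I830127L07Rik by 0.89 (adjusted p = 0.000267) and 0.66 (adjusted p = 0.00104).

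**Figure D5:**
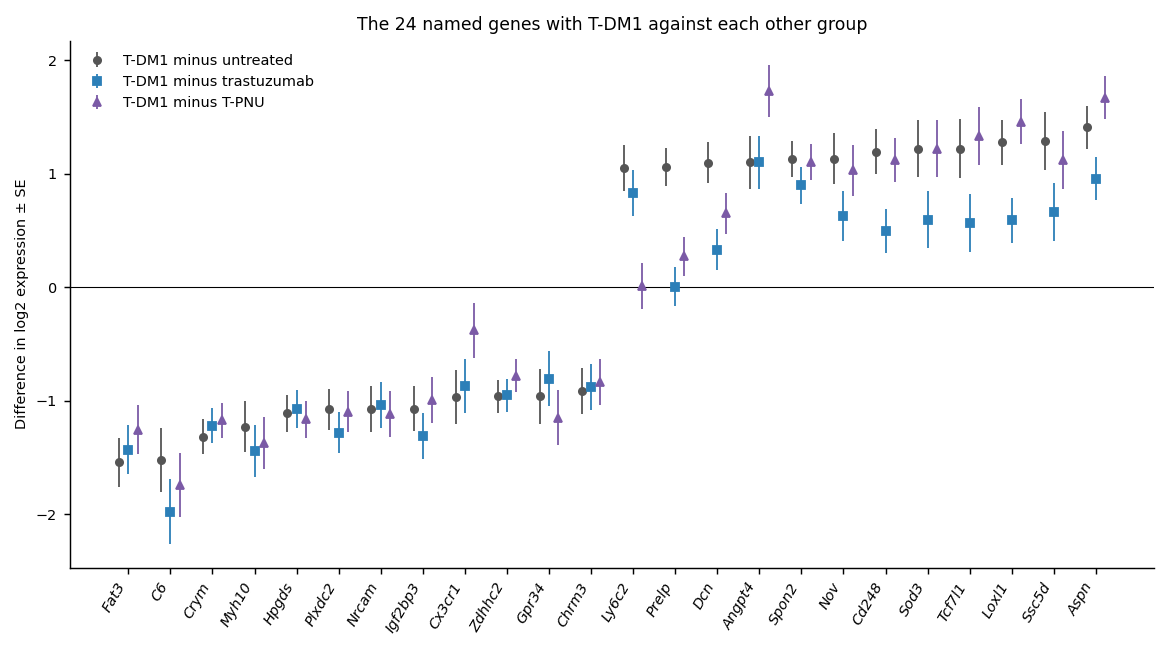
Difference in log2 expression ± SE (y axis) of T-DM1 from untreated (circles), trastuzumab (squares) and T-PNU (triangles) for the 24 named genes (x axis), with 6 samples a group and the T-DM1 samples shared by the 3 differences. The falls on the left lie below 0 in all 3, while Prelp lies near 0 against trastuzumab and Ly6c2 near 0 against T-PNU.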

How the data were processed

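The authors mapped single reads to the mouse genome (mm10 per the labels) with STAR 2.4.2a, counted them per gene and strand with featureCounts (Subread 1.5.0) and removed genes with fewer than 5 counts on average. The deposited log2 values are normalized for library size; the transformation is not given in the sources used here, nor is the treatment of reads that match several genes. They are not whole reads, so depth is unknown and counting error has no interval here.

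Linear models were fitted to the log2 values with limma 3.58.1 in R 4.3.3 (eBayes with a trend), with the 4 groups in one fit and no covariate, and p-values were adjusted over all 16996 genes by the Benjamini-Hochberg method. The count-based test of the study could not be used on such values. Named are the 12 largest rises and falls among genes with a symbol past FDR 0.01 and a fold change of 2, filled up at FDR 0.05; up to 4 called members of each list; up to 5 a direction without B1 and C1; and the leukocyte markers. Other genes in the text were chosen after their values were seen. The members and the 46 lists were chosen with earlier results of these data known. Of the list genes, 12 were without values. Every gene named has the two-sided exact permutation test as an alternative, whose smallest p is 0.00216 for 6 against 6.

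Positions, names, and the GC content of the longest transcript came from GENCODE M21 (GRCm38, the assembly also called mm10), for 99.6% of genes, and each sample's trend with GC content was taken out with loess (span 0.3). For a list, each gene's 24-sample average was subtracted and the members were then averaged in each sample to give its level. Promoters were RefSeq windows on GRCm38.p6. The limma fit was tested on simulated data. Plots used matplotlib 3.10.9 (Python 3.11.15). Each sample is a mouse, and every column of the table was used.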

Additional observations from a re-analysis of the deposited data

Results flagged for a closer look

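A sample far from the other 5 of its group was found in 3 of the 48 groups of the 24 named genes, where chance flags about 1 in 20 groups. For Fat3, T-DM1 sample C3 had a log2 value of 6.40 and the other treated mice 5.62 to 5.88. For Gpr34, T-DM1 sample H3 was at 6.90 and the others at 5.78 to 6.14. For Chrm3, untreated C1 was at 7.43 and the other untreated mice at 6.09 to 6.46; without B1 and C1 the log2 fold change of Chrm3 was -0.78 (adjusted p = 0.0282).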

How the results depend on the processing

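Counts at FDR 0.01 and a fold change of 2 are given as higher/lower, main 18/8, then those at FDR 0.05, main 699/366. Without untreated B1 and C1 they were 5 higher, and 145 and 199. The 20 samples that the study's heatmaps show gave 5 higher, and 154 and 187. Fits of the T-DM1 and untreated samples alone gave 4 and 0, and 147 lower at FDR 0.05, and with B1 and C1 also left out 6 higher, and 345 higher at FDR 0.05. Quantile normalization gave 10 higher. Genes with a mean above the median gave 4 and 1, and 452 higher at FDR 0.05, with fewer genes tested. Sample weights gave 1864 and 1433 at FDR 0.05. With the GC trend removed, a fit added after the data were seen, counts were 4 and 3, then 112 and 173, and 6 higher, then 37 and 123, without B1 and C1. The cause of these differences was not tested. Leaving out 1 sample gave 7 to 44 higher and 2 to 15 lower past both thresholds, and 259 to 1000 higher and 136 to 626 lower at FDR 0.05. Past both thresholds the higher count moved over 1.5 times without A1 (8), B1 (7), D1 (11), E1 (44), C3 (8), D3 (8), F3 (7) or H3 (28), and the lower count without A1 (5), B1 (15), C1 (2), D3 (4), E3 (3) or F3 (3). At FDR 0.05 the higher count moved over 1.5 times without A1 (359), C1 (393), C3 (459), D3 (259), E3 (289) or F3 (282), and the lower count without A1 (174), C1 (208), E1 (626), F1 (233), D3 (160), E3 (136), F3 (164) or H3 (573). From the fit already without B1 and C1, leaving out 1 more sample, also added later, gave 2 to 7 and 4 to 9, and 15 to 373 and 36 to 353 at FDR 0.05, lowest without A1 and highest without H3.

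Of 67 named genes called over all samples, none changed direction under any alternative, and 39 kept their call without B1 and C1 and 35 with the GC trend removed. All 67 had an exact permutation p under 0.05, not adjusted for the number of genes. They were chosen by their calls on the same samples, so neither the directions nor these p-values are independent support. Of the 24 genes named by size, 22 kept an adjusted p under 0.05 whichever single sample was left out; Cx3cr1 lost it in 2 of 12 fits and Gpr34 in 4. With B1 and C1 already left out, 12 of the 24 kept it in all 10 fits, among them 3 of the 12 rises (Aspn, Spon2 and Ly6c2), while Angpt4 had it in 0 of 10, Tcf7l1 in 1, Ssc5d and Sod3 in 2 and Nov in 3. The uncalled leukocyte marker Coro1a (-0.07) turned to 0.081 in the 3 fits without B1 and C1 and to 0.0048 with sample weights, and with the GC trend also removed Ptprc turned to 0.027 and Cd53 to 0.067. Of the counts of called members per list, 1700 of 2024 were within 1.5 times of the main count. Most lists held no call in a given direction, so this share says little about the lists that did. No paired analysis was possible because the labels give the groups no shared replicate numbers. The precision of each value is limited by the 6 mice a group, and what depth limits cannot be given without counts.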

Other observations

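Lists not described above held few calls. Over all genes, 7737 of 16996 were above 0, and 4.11% were called higher and 2.15% lower. Without B1 and C1 the called shares were 0.853% and 1.17%. Of 15 genes of the IL-6 family and other cytokines 14 were above 0 and none was called (median 0.37; 0.11 without B1 and C1). Single members rose among 18 genes of cholesterol synthesis (Srebf2, log2 fold change 0.49, adjusted p = 0.0424), 9 of cholesterol efflux (Srebf1, log2 fold change 0.52, adjusted p = 0.0149), 15 of hypoxia and glycolysis (Pfkl, log2 fold change 0.41, adjusted p = 0.0459), 11 of mature dendritic cells (Fscn1, log2 fold change 0.90, adjusted p = 0.0258) and 4 of plasma cells (Sdc1, log2 fold change 0.72, adjusted p = 0.0277). None of these 5 was called without B1 and C1 or with the GC trend removed. Of 11 complement genes C1qb fell, and Cfb, a factor of the alternative pathway, was higher without B1 and C1 (0.55, adjusted p = 0.0429). No member was called among conventional type 1 (median -0.20) and type 2 dendritic cells (-0.04), mast cells, basophils and eosinophils (-0.05), adipose, muscle and mammary tissue (0.16), lipid-associated macrophages (-0.01) and endoplasmic reticulum stress (-0.02).

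The relation with GC content was not the same in every mouse. The mean deviation of the third of genes with the highest GC content minus that of the third with the lowest was positive in 5 of the 6 T-DM1 mice, from 0.11 to 0.30, and -0.11 in H3. Among untreated mice it was negative in 4, from -0.27 to -0.10, and 0.0057 in D1 and 0.07 in E1.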
